A study of Cucumis melo with 62 samples.

Results

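The cultivar contrast described here is TTDV against F39 melon (Cucumis melo) fruit grown in Georgia in 2019. It rests on 5 of the 62 RNA libraries of the study, 3 of F39 and 2 of TTDV. A gene was kept when at least 2 of these 5 libraries lay 1 unit or more above the lowest value of the table, which kept 14907 of 29980 gene IDs. The fruits of both cultivars are labelled wild type and were harvested at maturity, about 45 days after flowering. The labels name no treatment, and do not say whether the libraries of a cultivar came from separate plants. Unless a fit leaves some out, each p-value reflects no more than the scatter within groups over all 38 F39 and TTDV libraries. That scatter may be technical. Values are the authors' variance-stabilised values, a log2-like scale, and reads are the normalised reads recovered from them.

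A melon fruit at maturity is changing fast. As background, ripening brings softening of cell walls, build-up of sugars and pigments, aroma volatiles and, in many cultivars, a rise in the hormone ethylene. Cultivars can differ in the timing of these changes and in the alleles they carry, including alleles from which no transcript is made. No table used here pairs the gene IDs with product names, so the genes are given by ID with their levels, and no function is assigned to them.

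The 3 F39 libraries held 20462977, 27157946 and 23589362 recovered reads, and the 2 TTDV libraries 23944024 and 14563897. A read was found for 17637, 19582 and 17718 genes in F39 replicates 1, 2 and 3, and for 18650 and 16073 in TTDV replicates 1 and 2. TTDV replicate 2 was thus the shallowest library and had the fewest genes with a read. F39 replicates 2 and 3 lay on the TTDV side in part of the genes that separate the cultivars in other environments. Whether they hold F39 fruit alone was not tested beyond their positions in such genes, so F39 here means the libraries labelled F39.

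Of the 14907 genes kept, 12303 were at least 1 unit above the lowest value in each of the 5 libraries and 821 in just 2 of them. For 153 of those 821 the libraries were the 2 of TTDV, so these genes could pass only by being high there. At the edge of the rule, the second highest value lay 1.00 above the lowest value for the gene just inside and 0.995 for the gene just outside, with 319 genes within 0.1 above the edge and 393 within 0.1 below it.

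TTDV and F39 fruit at Georgia differed most in a gene of high level in F39. MELO3C016167.2 had 25686, 14045 and 15613 reads in F39 and 75.9 and 25.3 in TTDV. All 3 F39 libraries were far above both TTDV libraries, and the difference was -7.84 ± 0.62 (SE, limma adjusted p = 5.15e-09). MELO3C018450.2 was also lower in TTDV, with 696, 1792 and 7040.3 reads in F39 against 86.5 and 15.8. The groups did not overlap, but the F39 libraries themselves spread widely, and the difference was -4.85 ± 1.12 (limma adjusted p = 0.0157). In bulk tissue, fewer cells of a type and less RNA per cell cannot be told apart.

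In the other direction, MELO3C022978.2 had 110.2, 190.1 and 42.4 reads in F39 and 4181 and 7419.8 in TTDV. Both TTDV libraries were well above all F39 libraries, a difference of 5.39 ± 0.84 (limma adjusted p = 0.000469). MELO3C010183.2 had 514, 9.93 and 17.1 reads in F39 and 2293 and 3619 in TTDV, a difference of 4.89 ± 0.85 (limma adjusted p = 0.00135). Its F39 level was carried by replicate 1. Without F39 replicates 2 and 3 the difference was 2.41. Over the alternatives fitted to variance-stabilised values it ranged from 2.41 to 6.13. It was 6.21 in limma's voom on recovered reads, which has another scale.

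**Figure D1:**
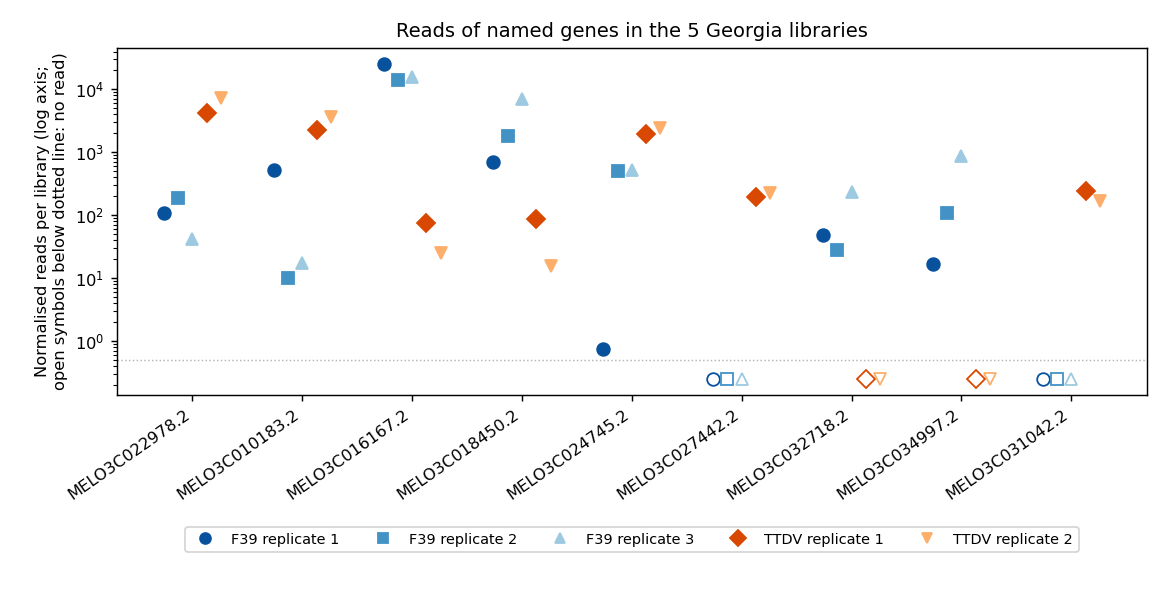
Normalised reads (log axis) of 9 named genes in the 5 Georgia libraries, 1 symbol per library, with open symbols for libraries without a read. MELO3C016167.2 lies between 14045 and 25686 reads in F39 and at 75.9 and 25.3 in TTDV, while MELO3C024745.2 is near 0 in F39 replicate 1 and at 506 and 526 reads in F39 replicates 2 and 3.

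Across the table, 393 of 17383 genes tested (2.26%) passed the threshold of a limma adjusted p under 0.05. Of these, 245 were higher (1.41%) and 148 lower (0.851%) in TTDV. Among the genes kept, 382 of the 14897 tested passed (2.56%), with 236 higher and 146 lower. Since most tested genes were kept, this share is close to that of the whole table by construction. The median absolute difference was 1.72 units in these 382 genes and 0.349 over all genes tested. A difference of at least 1 unit was found in 353 of them, at least 2 units in 150, and the smallest was 0.788. Of the 393 genes, 62.3% were higher in TTDV, against 74.5% of 381 genes (2.19%) in limma's voom on recovered reads. The share was 52.2% when TTDV replicate 1 was left out and 50.7% with F39 replicate 1 as the lone F39 library.

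Genes of every level were among those that changed. Below a mean of 30 reads, 63 of 2363 genes kept passed the threshold (2.67%), between 30 and 300 reads 180 of 5669 (3.18%), between 300 and 3000 reads 117 of 5912 (1.98%), and from 3000 reads 22 of 953 (2.31%). More genes were higher than lower in TTDV in each of these 4 classes, with 16 against 6 in the highest. Among the 100 most abundant genes, whose means were at least 15398 reads, a single gene passed, named here after its value was seen. MELO3C023644.2 had 7001, 7802 and 4513 reads in F39 and 23780.4 and 43605 in TTDV, a difference of 2.35 ± 0.57 (limma adjusted p = 0.0218). At California it differed by 2.89 in the same direction.

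The libraries of the cultivars did not overlap in 380 of the 382 genes kept that passed, against 33.5% of all 14907 genes kept. Passing was judged on the same 5 libraries, which by itself favours genes without overlap. The 2 that did overlap, named after their values were seen, were MELO3C018880.2 and MELO3C024128.2. MELO3C018880.2 had no read in F39 replicate 1 nor in TTDV, but 104 and 145 reads in F39 replicates 2 and 3. MELO3C024128.2 had 321, 113 and 66.8 reads in F39 against 94.2 and 3.16 in TTDV. Their limma adjusted p was 0.0301 and 0.0456.

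Over all 14907 genes kept, both TTDV libraries were above all 3 F39 libraries by at least 1 unit in 249 genes and below in 119, together 2.47%. With no minimum gap 4994 genes (33.5%) were separated, and with a gap of 2 units 66 (0.443%). With so few libraries, many genes would be separated without a gap by order alone, whatever the labels. Against F39 replicate 1 alone, both TTDV libraries were apart by at least 1 unit in 2276 genes (15.3%), against replicate 2 alone in 1527 (10.2%) and against replicate 3 alone in 2160 (14.5%). By this count TTDV was nearest to F39 replicate 2.

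The number of genes that passed rested on single libraries. It was 38 (0.219%) when TTDV replicate 2 was left out, with 1160 genes at an unadjusted p under 0.05, and 251 (1.45%) when TTDV replicate 1 was. Both fits take the spread of a single TTDV library from the remaining groups. All 38 genes were among the 393, as were 190 of the 251. Without F39 replicate 1 it was 456 (2.63%), of which 267 were among the 393, and with F39 replicate 1 as the lone F39 library it was 521 (3.01%), of which 172 were. Leaving out F39 replicate 2 gave 357 (2.06%) and replicate 3 304 (1.75%). A fit over the 5 Georgia libraries alone gave 24 genes (0.138%), with 2145 at an unadjusted p under 0.05.

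Settings that keep all 5 Georgia libraries also moved the count. It was 349 (1.28%) with no filter on low values, 306 (2.58%) with a stricter filter, 436 (2.92%) over the genes kept, 372 (2.14%) after quantile normalization, 399 (2.3%) with plain moderation and 562 (3.34%) without the Uvalde 2019 libraries.

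**Figure D2:**
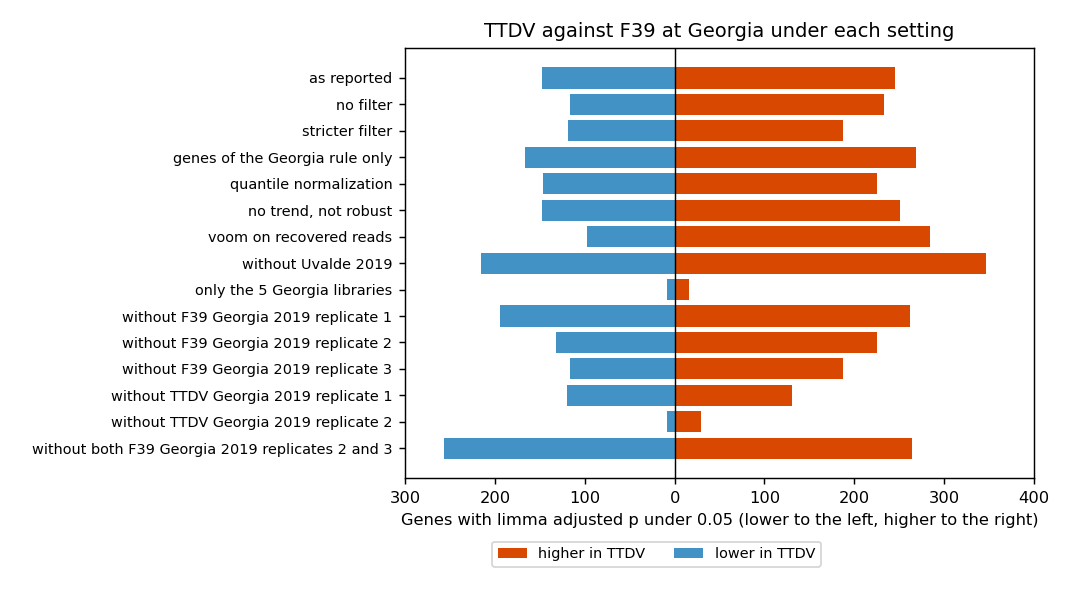
Number of genes past a limma adjusted p of 0.05 for TTDV against F39 at Georgia as reported (393) and under each alternative, with genes higher in TTDV to the right and lower to the left. The bars are shortest for the 5 Georgia libraries alone (24) and without TTDV replicate 2 (38).

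F39 replicate 1 stood apart from F39 replicates 2 and 3. Over the genes tested, the median absolute difference was 0.464 units between replicates 1 and 2, 0.497 between 1 and 3, and 0.392 between 2 and 3. The TTDV pair differed by 0.285, and the 33 pairs within the other groups by 0.152 to 0.788, with a median of 0.300. F39 against TTDV pairs differed by 0.373 to 0.518, a range that takes in each of the F39 pairs. Replicate 1 lay at least 2 units above both other F39 libraries in 173 genes tested and below both in 137. This sum of 310 genes was the sixth highest of the 36 libraries in groups of 3, against 121 for replicate 2, 150 for replicate 3 and a median of 54 over the 33 libraries outside Georgia.

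**Figure D3:**
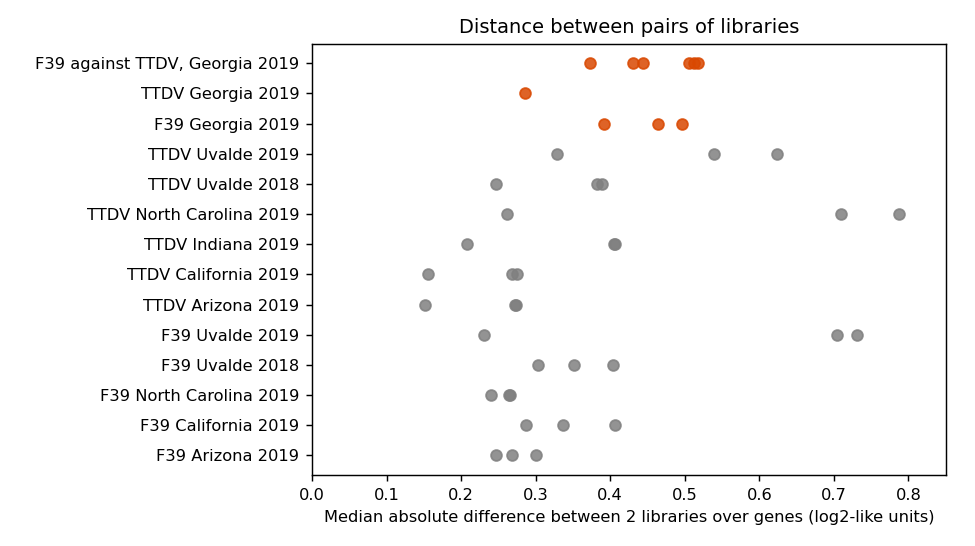
Median absolute difference (log2-like units) between each pair of libraries over the genes tested, by group, with Georgia in orange. The F39 Georgia pairs lie at 0.392, 0.464 and 0.497, above the TTDV Georgia pair at 0.285.

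By correlation across genes, given as a description, each F39 Georgia library was most similar to a library from elsewhere. Replicate 1 was closest to F39 Arizona replicate 1 (r = 0.954), replicate 2 to F39 California replicate 3 (r = 0.965) and replicate 3 to TTDV Indiana replicate 1 (r = 0.958). Between them the F39 Georgia libraries had r = 0.929 (1 and 2), 0.920 (1 and 3) and 0.953 (2 and 3). TTDV replicate 1 was closest to TTDV California replicate 2 (r = 0.986) and TTDV replicate 2 to TTDV Georgia replicate 1 (r = 0.979).

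The genes in which F39 replicate 1 stood furthest above both other F39 libraries were MELO3C019804.2 and MELO3C004550.2. MELO3C019804.2 had 13709 reads there against 177 and 92.1 in replicates 2 and 3, and 255 and 126 in TTDV. MELO3C004550.2 had 12318 reads against 170.2 and 59.5, and 132 and 127 in TTDV. In both genes a single library was high and the remaining 4 were alike. In the 12 F39 libraries of North Carolina, Uvalde 2018, Arizona and California, MELO3C019804.2 ranged from 42.9 to 1496 reads (median 233) and MELO3C004550.2 from 17.2 to 2195 (median 146). The level of replicate 1 was above all of these. In the 12 TTDV libraries there the median was 313 reads of MELO3C019804.2 and 172 of MELO3C004550.2, but the highest values were 25472 and 23649.

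Furthest below both were MELO3C019745.2, with 3.80 reads in replicate 1 against 3779 and 28107, and MELO3C013887.2, with 21.3 against 2627 and 2515. TTDV had 2782 and 4144 reads of MELO3C019745.2 and 965 and 826 of MELO3C013887.2. For MELO3C019745.2, F39 replicate 1 lay within the range of F39 elsewhere (1.57 to 724, median 18.9) and replicates 2 and 3 above it. For MELO3C013887.2, replicate 1 was below F39 elsewhere (45.1 to 820.1, median 341) and replicates 2 and 3 were above it.

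Of 137 genes kept in which replicate 1 was at least 2 units below both other F39 libraries, both TTDV libraries were on the side of replicates 2 and 3 in 76 and on the side of replicate 1 in 48. The F39 mean of the 4 other environments was on the side of replicate 1 in 68 of them and on the other side in 69. Of 170 genes kept with replicate 1 at least 2 units above both, both TTDV libraries were on the side of replicates 2 and 3 in 104 and on that of replicate 1 in 42. There the F39 mean elsewhere was on the side of replicate 1 in 20 genes and on the other side in 150. These genes were chosen for the extreme value of replicate 1, which by itself puts other libraries on the far side more often.

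The cultivar labels of the Georgia libraries were checked with genes chosen without them. In 25 genes, all 12 TTDV libraries of North Carolina, Uvalde 2018, Arizona and California lay above all 12 F39 libraries there, or all below, by at least 1 unit. Of these, 17 were high in TTDV and 8 high in F39. Each Georgia library was given a position, 0 at the F39 mean of those environments and 1 at their TTDV mean. TTDV replicate 1 was on the TTDV side of 0.5 in 25 of 25 genes and TTDV replicate 2 in 23. F39 replicate 1 was on the TTDV side in 0 genes, replicate 2 in 10 and replicate 3 in 7. The median positions were -0.030, 0.074 and 0.091 for F39 replicates 1, 2 and 3, and 1.00 and 0.936 for TTDV. The F39 libraries used to choose the genes reached a position of at most 0.640. That choice by itself keeps their positions low, so this value is no yardstick for libraries outside it.

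Cultivar genes high in TTDV and those high in F39 were counted apart, with no test between them. Among the 17 genes high in TTDV, F39 replicates 2 and 3 were both on the TTDV side in 6, replicate 2 alone in 3, replicate 3 alone in 1 and neither in 7. No read was found in F39 replicate 1 for 14 of the 17, in replicate 2 for 8, in replicate 3 for 7 and in all 3 libraries for 6. Both TTDV libraries had reads of all 17. Among the 8 genes high in F39, replicate 2 was on the TTDV side in 1, and replicates 1 and 3 in none.

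The gene with the widest gap elsewhere, MELO3C024745.2, had 0.76, 506 and 526 reads in F39 replicates 1, 2 and 3 and 1984 and 2433 in TTDV at Georgia. The 12 F39 libraries elsewhere had at most 10.7 reads, so replicates 2 and 3 lay between the cultivars and replicate 1 did not. MELO3C034833.2 had 0, 140.0 and 117 reads in F39 and 65.8 and 11.6 in TTDV, against at most 2.05 in F39 elsewhere and 49.8 to 165 in TTDV elsewhere. Here replicates 2 and 3 were at the TTDV level of the other environments. MELO3C002766.2 had 84.3 reads in F39 replicate 1, 414 and 555 in replicates 2 and 3, and 628 and 417 in TTDV.

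Replicates 2 and 3 did not always move together, as some genes named after their values were seen show. MELO3C004078.2 had no read in F39 replicates 1 and 3 and 69.5 in replicate 2, beside 29.6 and 82.1 in TTDV. MELO3C018057.2 had no read in replicates 1 and 2 and 36.7 in replicate 3, beside 87.7 and 52.6 in TTDV. In the 12 F39 libraries elsewhere MELO3C018057.2 had no read at all, and TTDV had 55.6 ± 23.4 (SD, n = 12). The gene high in F39 that put replicate 2 on the TTDV side was MELO3C030687.2, with 91.2, 9.46 and 107 reads in F39 and 1.78 and 0 in TTDV.

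Other cultivar genes kept F39 and TTDV wholly apart at Georgia. MELO3C027442.2 had no read in all 3 F39 libraries, which allows up to 2.44 normalised reads in the library with the highest limit, and 193 and 222 reads in TTDV. It was at least 84.8-fold higher in TTDV, the mean of 207 ± 20.9 (SD, n = 2) taken against that limit, with limma adjusted p = 5.05e-06. Of the 25 genes, 17 passed the threshold at Georgia, against 2.26% of all genes tested. The choice of genes that never overlap favours genes of low spread, which pass more easily because all groups share an estimate of the spread.

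**Figure D4:**
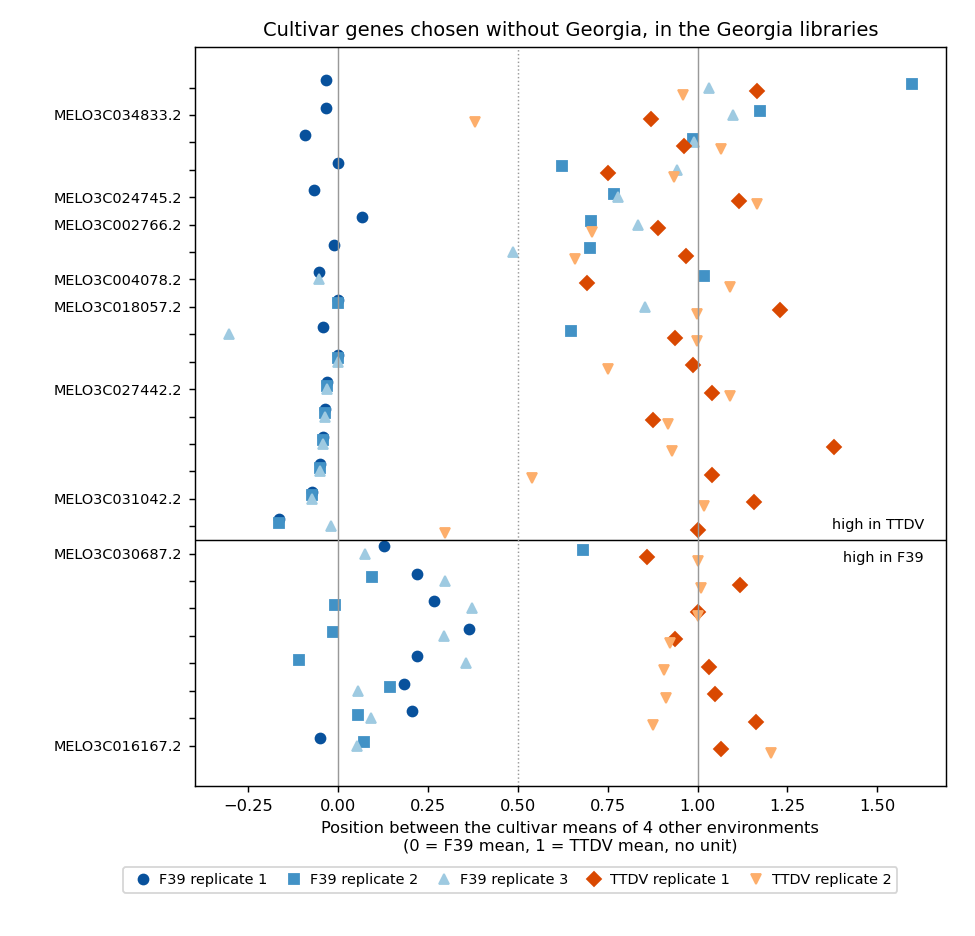
Position of each Georgia library between the F39 mean (0) and the TTDV mean (1) of 4 other environments, for 25 genes (rows) chosen without Georgia, with the genes named in the text labelled. F39 replicate 1 stays under 0.5 in all 25 rows, while F39 replicates 2 and 3 pass 0.5 in 9 and 7 of the 17 genes high in TTDV.

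A wider set chosen after the data were seen was read in the same way. It held the 107 genes past the threshold over the 4 other environments with a mean difference of at least 2 units, where 14.9% of all genes tested passed at any size. Of the 70 high in TTDV, F39 replicate 1 was on the TTDV side in 11, replicate 2 in 36 and replicate 3 in 34, with median positions of -0.046, 0.505 and 0.475. Of the 37 high in F39, the counts were 13, 7 and 10, with median positions of 0.240, 0.115 and 0.052. TTDV replicates 1 and 2 were on the TTDV side in 102 and 98 of the 107.

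Some genes were without a read in a whole cultivar at Georgia. In 12 of the 14907 genes kept, no F39 library had a read while both TTDV libraries were at least 1 unit above the lowest value. Such genes could be kept only by being high in TTDV. The highest of these by the lower TTDV library were MELO3C027442.2, given above, and MELO3C031042.2, with 244 and 171 reads in TTDV, also at least 84.8-fold higher. The reverse held for 5 of the genes kept, which could be kept only by being high in F39. MELO3C032718.2 had 48.6, 28.4 and 235 reads in F39 and none in TTDV, at least 32.98-fold lower there by the F39 mean. MELO3C034997.2 had 16.7, 109 and 877 in F39 and none in TTDV, at least 106-fold lower. Both bounds rest on F39 replicate 3, without which they were 12.2-fold and 19.9-fold. The limits were 3 reads in the TTDV library with the highest limit, 3.16 normalised reads, and cover counting error only.

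These 4 genes differed in how far the pattern held elsewhere. MELO3C027442.2 had at most 4.95 reads in F39 of the 4 other environments and 80.9 to 583 in TTDV. MELO3C031042.2 had at most 40.9 in F39 and 115 to 309 in TTDV. In contrast, MELO3C032718.2 had up to 17.2 reads in TTDV elsewhere and as few as 2.35 in F39, and MELO3C034997.2 up to 138 in TTDV and 0 to 724 in F39. The contrast is of these 4 genes only. Of the 12 genes without a read in F39 at Georgia, 2 had none in the 12 F39 libraries elsewhere. Of the 5 without a read in TTDV, 1 had none in the 12 TTDV libraries elsewhere. In 26 further genes of the 14907 kept, F39 replicate 1 alone had no read and the other 4 libraries were at least 1 unit above the lowest value. The same count for the other single libraries is not given here, so the 26 cannot be read as particular to replicate 1.

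The same difference was then read in the other environments. Their libraries take no part in the Georgia difference itself, but they share the estimate of spread behind each Georgia call, so genes of low spread pass more easily at Georgia and elsewhere alike. Of the 382 genes kept that passed, 373 had the same sign at California (97.6%) and 337 at North Carolina (88.2%). The same sign was found for 244 at Arizona (63.9%) and for 223 at Uvalde 2018 (58.4%). Over all genes tested, differences of any size had the Georgia sign in 65.4%, 60.0%, 49.3% and 48.4% there. At California the median difference in the Georgia direction was 1.47 units, close to the 1.72 at Georgia, which the choice of genes there favours. The corresponding medians were 0.666 (North Carolina), 0.248 (Arizona) and 0.258 (Uvalde 2018).

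At California 268 of the 382 genes passed the threshold with the same sign and 0 with the opposite sign, where 16.8% of all genes tested passed. At North Carolina 101 passed with the same sign and 5 with the opposite (4.07% of all genes tested passed), and at Arizona 63 and 3 (1.28%). At Uvalde 2018, where 21.5% passed, 101 did so with the same sign and 54 with the opposite. All 4 environments had the Georgia sign for 152 genes (39.8%, against 12.3% of all genes tested), and 0 of the 382 had the opposite sign in all 4, against 4.41% of all genes tested. The libraries of Uvalde 2019, which on earlier results of these data lie on the side of the other cultivar, had the Georgia sign in 67 of the 382 genes (17.5%, against 38.97% of all genes tested). None of the 67 passed there, and 104 genes passed with the opposite sign, where 4.77% of all genes tested passed.

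**Figure D5:**
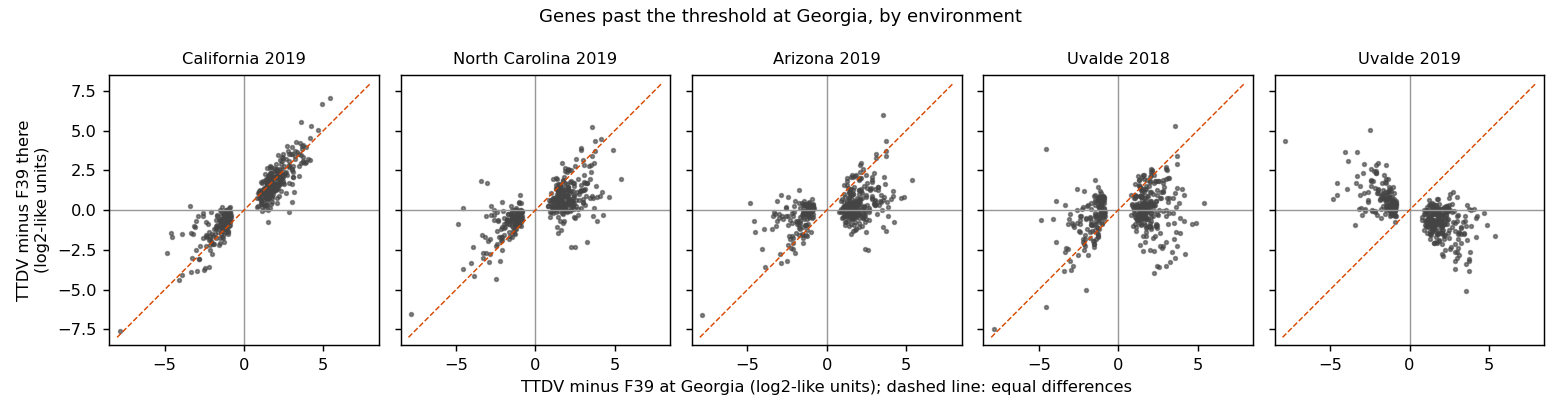
TTDV minus F39 at Georgia (horizontal) against the same difference in 5 other environments (vertical), in log2-like units, for the 382 genes kept that passed at Georgia, 1 point per gene. The dashed line marks equal differences. At California 373 points have the Georgia sign, while at Uvalde 2018 223 do.

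The named genes also varied between environments. MELO3C016167.2 differed by -7.84 at Georgia and by -7.59, -6.55, -6.61 and -7.50 in California, North Carolina, Arizona and Uvalde 2018. MELO3C022978.2 differed by 7.02 at California but by 1.98, 1.87 and 0.44 at North Carolina, Arizona and Uvalde 2018. MELO3C010183.2 differed by 6.69, 3.77, 0.85 and -0.82 in the same order. For MELO3C018450.2 the differences were -2.67, -0.87, 0.44 and -0.65, each smaller in size than at Georgia.

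Whether the cultivar difference at Georgia itself departed from its mean over California, North Carolina, Arizona and Uvalde 2018 was tested in the same fit. It did in 7 of 17383 genes (0.0403%), 2 with a higher and 5 with a lower value at Georgia, and 1814 genes had an unadjusted p under 0.05. MELO3C034833.2 had a difference of -0.32 at Georgia against 2.70 elsewhere, a departure of -3.03 ± 0.58 (limma adjusted p = 0.0425), and MELO3C002766.2 had 0.80 against 3.03, a departure of -2.23 ± 0.41 (adjusted p = 0.0425). Both are cultivar genes in which F39 replicates 2 and 3 lay on the TTDV side. In MELO3C034833.2, TTDV replicate 2 also lay on the F39 side, at a position of 0.383. With F39 replicate 1 as the lone F39 library, the departures of the 2 genes were -0.92 and -0.81, smaller as the reads of F39 replicates 2 and 3 require. Without TTDV replicate 2, the departures were -2.37 and -1.95.

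The other direction was that of MELO3C017180.2 and MELO3C007574.2. MELO3C017180.2 had 85.1, 36.4 and 52.2 reads in F39 and 151 and 474 in TTDV, a difference of 1.80 at Georgia against -1.71 elsewhere (departure 3.51 ± 0.66, limma adjusted p = 0.0425). MELO3C007574.2 had 20.5, 19.9 and 20.4 reads in F39 and 97.2 and 127 in TTDV, 1.54 against -0.48 (departure 2.02 ± 0.39, adjusted p = 0.0425). Their differences at California, 1.27 and 1.84, had the Georgia sign, and those at Uvalde 2018, -4.73 and -2.57, did not. Of the 7 genes, MELO3C007574.2 and MELO3C020256.2, the latter named after its value was seen, also passed in the Georgia comparison itself. MELO3C020256.2 had 384, 356 and 304 reads in F39 and 150.0 and 127 in TTDV, with a departure of -1.09 ± 0.21 (adjusted p = 0.0425).

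The 7 calls were close to the threshold and changed with single libraries and with the method. The count was 5 both after quantile normalization and with voom. MELO3C007574.2 then had an adjusted p of 0.0698 and 0.23, and 0.0651 with the stricter filter, while MELO3C034833.2 had 0.0874 with voom. It was 0 when TTDV replicate 2 was left out, 2 without F39 replicate 2, 5 without F39 replicate 3, 59 without F39 replicate 1 and 66 when TTDV replicate 1 was left out. With F39 replicate 1 as the lone F39 library, whose spread is taken from the other groups, it was 255. Without TTDV replicate 2 the adjusted p of each of the 4 genes named by rule was 1.000.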

How the data were processed

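RNA sequencing values were deposited for 38 libraries of F39 and TTDV and 24 libraries of other cultivars, the latter not used here. The authors deposited variance-stabilised data, log2-like in scale. DESeq and DESeq2 are named, without versions, in the submitters' processing notes. For the aligner, counter, build and annotation the answer is: not given in the sources used here. A count of 0 has the value 4.18, the lowest. Inverting the transform gave whole reads within 0.05 for at least 99.956% of values per library, and totals of 6251302 to 31333150 reads. Low counts are compressed, as a doubling from 10 reads moves the value by 0.405 and from 1000 reads by 0.975. An excess of 1 unit over the lowest value is 9.08 reads.

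Groups follow the cultivar, location and year in the labels, and replicates are numbered in accession order. limma 3.58.1 in R 4.3.3 was fitted to all 38 libraries with 1 coefficient per group, trend and robust moderation, for 17383 genes with at least 3 libraries 1 unit above the lowest value. P-values were Benjamini-Hochberg adjusted over these genes, with a threshold of 0.05. On simulated data the Georgia comparison recovered 72% of 100 genes changed by 2 units and 12% of 100 changed by 1 unit. Among the rest of the 17383 genes it made 2 false calls. The test against the other environments recovered 66% of the genes changed by 2 units and 9% of those changed by 1 unit. It made 5 false calls. The simulated spread of a gene was normal and equal in all groups, whereas the F39 Georgia pairs differed by more than the median pair elsewhere. Recovery in these data may thus be lower and false calls more numerous. With its equal spread, the simulation could not show how many of the Georgia calls are false. Alternatives were other filters, quantile normalization, plain moderation, voom, and leaving out libraries. The named genes are at most 2 IDs per direction with the largest values among those meeting each comparison's condition, as the reference table (assembly USDA_Cmelo_AY_1.0) matched 0 IDs. For the Georgia comparison that condition was passing without overlap, and for the test against other environments passing. For the cultivar genes it was F39 replicates 2 and 3 both over 0.75 or both under 0.25 in position, with the widest gap. The contrast, genes and rules were chosen with earlier results of these data known.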

Additional observations from a re-analysis of the deposited data

Results flagged for a closer look

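The difference between TTDV and F39 at Georgia departed from its mean over North Carolina, Uvalde 2018, Arizona and California in 7 genes, by a limma test of the difference of differences. The departure was 3.51 for MELO3C017180.2 and 2.02 for MELO3C007574.2, which were relatively higher in TTDV at Georgia. It was -3.03 for MELO3C034833.2 and -2.23 for MELO3C002766.2, in which F39 replicates 2 and 3 but not replicate 1 were on the TTDV side. In MELO3C034833.2, TTDV replicate 2 was also on the F39 side. Why the difference departed in these genes was not tested.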

How the results depend on the processing

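The count of genes past the threshold at Georgia, 393, was 24 in a fit over the 5 Georgia libraries and ranged from 38 to 456 when a library was left out. It stayed within 1.5 times of 393 under the other 8 alternatives, between 306 and 562. The 7 genes that departed from the other environments were 13 with no filter, 17 without Uvalde 2019, 255 without both F39 replicates 2 and 3, and 0 to 66 with a library left out. The 25 cultivar genes were 48 with a gap of 0.5 units, 3 with 2 units and 107 by the wider rule. Genes kept that did not overlap by 1 unit, 368, were 4994 with no gap and 66 with 2 units. The share of genes with the Georgia sign elsewhere moved little when only differences of at least 1 unit were counted (98.02% at California, 59.5% at Uvalde 2018). Of 108 values of the 8 results for named genes, 81 kept their side of the threshold, 27 lost it and 0 changed sign. MELO3C018450.2 lost it in 5 of 14 alternatives, with adjusted p from 0.00841 to 0.427 and 0.0899 with voom, and MELO3C010183.2 in 3 of 14. Of the genes that departed from the other environments, MELO3C007574.2 lost it in 6 of 13, MELO3C034833.2 in 5, and MELO3C017180.2 and MELO3C002766.2 in 4 each. MELO3C016167.2 and MELO3C022978.2 passed in all 14. The cause of these changes was not tested. No paired analysis was possible because the replicate numbers only follow accession order. TTDV replicate 2 had 14563897 reads, so levels under 3.16 normalised reads could not be told from 0 there.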

Other observations

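The 2 TTDV libraries of Georgia differed by at least 1 unit in 985 of 17383 genes (5.67%), of which 740 were higher in replicate 1, the deeper library, and 245 higher in replicate 2. In 37 genes they were at least 2 units apart. Among genes read in both, MELO3C034119.2 had 8605 and 1203 reads in TTDV replicates 1 and 2, and MELO3C027124.2 had 1684 and 253. These 2 genes also varied within F39, from 2175 and 315 reads in replicate 1 to 24.4 and 2.44 in replicate 3. Higher in replicate 2 were MELO3C009097.2, with 30.8 against 446 reads, and MELO3C003294.2, with 2396 against 17650.3.

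The genes with the most reads in each Georgia library did not pass the threshold between the cultivars. MELO3C020432.2 took 3.77%, 1.07% and 2.26% of the reads in F39 replicates 1, 2 and 3, and 1.43% and 1.64% in TTDV (limma adjusted p = 0.736). MELO3C025027.2, the most abundant in TTDV by mean, took 1.65% and 1.59% of the TTDV reads and 1.01% to 1.25% in F39. The leading gene of F39 replicate 2 was MELO3C024771.2, with 252148 reads there, 542077 in replicate 3 and 36592 in replicate 1, against 87101 and 66063 in TTDV. That of F39 replicate 3 was MELO3C014437.2, with 663128 reads there, 23471 and 35197 in replicates 1 and 2, and 1993 and 1425 in TTDV. All F39 libraries were above TTDV in MELO3C014437.2, but the difference of -5.57 ± 1.96 had a limma adjusted p of 0.135.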
